A study of Mus musculus with 15 samples.

Results

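The effect of low-dose cilengitide (ldCil) on gene expression was examined in cultured mouse cardiomyocytes over both levels of angiotensin II (AngII). All 8 libraries from cells given 20 nM cilengitide (S9 to S16) were set against all 7 libraries from cells without it (S1 to S3 and S5 to S8), so the comparison uses all 15 libraries of the series. The cells were isolated from hearts of wild-type C57/BL6 pups aged 1 to 3 days, incubated for 5 days and then held in 0.5% FBS for a 24 h starvation, with treatment begun on day 6, repeated on the following day, and harvest after 8 days of culture. The 4 groups were control (saline, 3 libraries, S1 to S3), AngII (1 µM AngII, 4 libraries, S5 to S8), ldCil (20 nM cilengitide, 4 libraries, S9 to S12) and AngII + ldCil (both, 4 libraries, S13 to S16). Every group shared the strain, the culture and the serum starvation. Neither the labels nor the methods say that the libraries of a group came from separate cultures. The p-values below therefore describe scatter between libraries that may be of technical origin.

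Integrins are paired α and β receptors that anchor cells to the extracellular matrix, and one class of them recognises the Arg-Gly-Asp (RGD) motif carried by fibronectin, vitronectin, osteopontin and other ligands. Cilengitide is a cyclic peptide that carries this motif and binds αvβ3 and αvβ5, and it was developed as an inhibitor of these receptors at high doses. In the heart αvβ3 is found on endothelial cells, fibroblasts and cardiomyocytes, and in endothelial cells its signalling is linked to that of the VEGF receptor 2. AngII is a peptide hormone that acts through a receptor coupled to phospholipase C and makes cultured cardiomyocytes enlarge. The question addressed here is what the cells express differently with ldCil whether or not AngII is present.

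Each value is a log2 RPKM, that is the log2 of read number per unit of transcript length and of sequencing output, after conditional quantile normalisation by the authors. Genes were kept where the log2 RPKM averaged 0 or more, which left 12848 of 14337, and tested with limma in a model with ldCil and AngII as additive factors, so that each difference below is the log2 RPKM with ldCil minus that without it at a fixed AngII level. The files hold no read counts, so the depth behind a value is unknown. Cardiomyocyte markers were the highest of the marker lists, with a mean log2 RPKM of 11.99 for *Nppa*, 11.69 for *Actc1* and 11.22 for *Myh6*. Genes of other heart cells were also present, with 10.18 for the fibroblast gene *Sparc*, 7.37 for the macrophage gene *Lyz2* and 5.90 for the endothelial gene *Eng*. The first principal component held 49.0% of the variance between libraries, of which the ldCil term took 5.97% at fixed AngII, and libraries of the same group lay far apart. Libraries S1, S3, S5, S9 and S10, which come from 3 groups, had the highest mean of a list of 37 interferon-stimulated genes.

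No gene differed with ldCil at an adjusted p under 0.05 in the limma model, and the smallest adjusted p was 0.999. At an unadjusted p under 0.01 there were 6 genes (0.0467% of the genes tested), all higher with ldCil, and at an unadjusted p under 0.05 there were 100 (0.778%), of which 73 (0.568%) were higher and 27 (0.21%) lower. A uniform spread of p-values over the genes tested would give 128 and 642 genes at these thresholds. The estimates themselves were small, with a median size of 0.09 on the log2 scale against a median standard error of 0.15. Of all genes, 6859 (53.4%) lay above 0 and 5989 (46.6%) below it, with a median of 0.01. Low genes leaned up most. Of the 2430 genes with a mean log2 RPKM between 0 and 2, 1485 lay above 0 (median 0.06), against 706 of the 1501 over 6 (median −0.007).

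If the libraries are taken as independent replicates, which the sources do not state, the data also bound the size of the ldCil difference averaged over the 2 AngII levels. For 11897 genes (92.6%) its 95% interval lay within a log2 change of 1 in either direction. For 8030 genes (62.5%) it lay within 0.5. Fewer genes were bounded at a single level. Within 1 lay 78.2% of genes without AngII and 83.2% with it, and within 0.5 lay 32.6% and 37.7%. Averaged over both levels, intervals were widest for low genes. The interval reached a median of 0.56 to either side of the estimate for the 2430 genes with a mean log2 RPKM between 0 and 2, 0.33 for the 4387 between 2 and 4, 0.25 for the 4530 between 4 and 6 and 0.26 for the 1501 over 6. Only 41 estimates exceeded 1 in size, 9 of them higher with ldCil and 32 lower, and the genes at an unadjusted p under 0.05 had a lower level (median 2.39) than all genes tested (median 3.85). Pseudogenes were 12 of those 100 genes and 4.86% of the genes tested.

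The 12 genes with the smallest p among those higher with ldCil were led by *Fbxo48*, which encodes an F-box protein, a family that selects substrates for ubiquitin ligases (chromosome 11, 16951375 to 16954772, plus strand, GRCm38). Its log2 RPKM was 0.06, −0.21 and 0.01 in the control libraries and 0.47, 0.80, 0.96 and 1.15 in the ldCil libraries. With AngII it was 0.05, 0.02, 0.92 and 0.75, against 1.20, 0.97, 1.80 and 1.00 with AngII + ldCil. Every ldCil library lay above every library without it at the same AngII level, and the AngII libraries formed a low pair (S5 and S6) and a higher pair (S7 and S8). The difference was 0.85 ± 0.20 (SE, n = 8 and 7; 95% interval 0.41 to 1.28; limma unadjusted p = 0.000791, adjusted p = 0.999). Differences below are given ± SE over the same libraries. An exact permutation of the ldCil labels within each AngII level, 2450 assignments in all, gave a 2-sided p of 0.000408, the smallest it can give, for a gene picked as the extreme of 12848. *Fbxo48* was the one gene whose libraries did not overlap in the same direction at both AngII levels (0.00778% of genes tested). Its mean log2 RPKM of 0.66 lies in the range where intervals are widest.

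**Figure D1:**
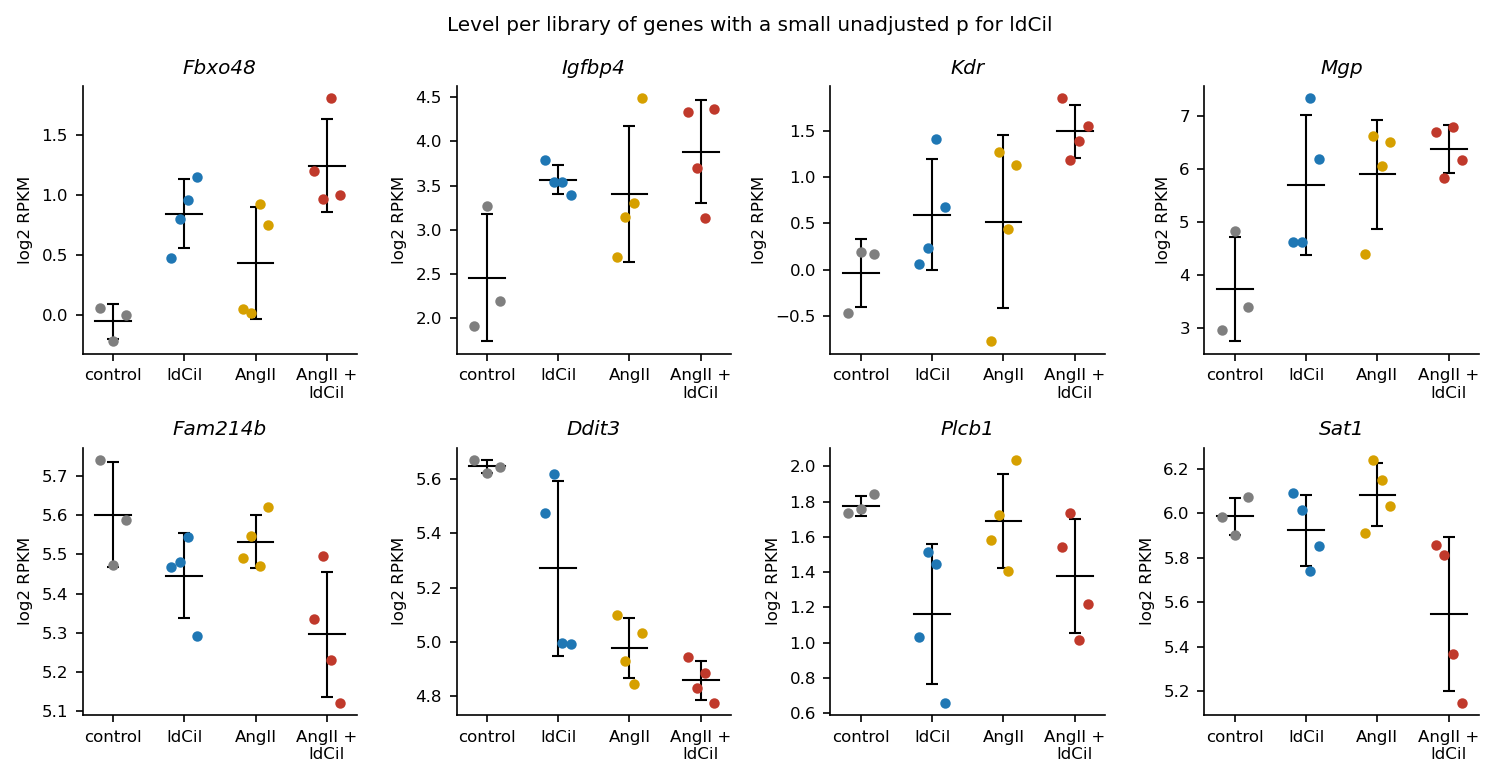
Log2 RPKM of 8 genes in each library, with control in grey, ldCil in blue, AngII in yellow and AngII + ldCil in red; lines and bars show the group mean and SD over 3 or 4 libraries. Groups separate without overlap at both AngII levels for *Fbxo48*, while the other genes overlap at one level or both.

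*Zfp971*, a zinc-finger gene, ran from 0.86 to 1.81 (median 1.41) with ldCil and from 0.47 to 0.99 (median 0.68) without it. Of the ldCil libraries 6 of 8 lay above all others, and the difference was 0.67 ± 0.19. *Pkdrej*, a polycystin family gene best known from the testis, ran from 0.49 to 1.89 (median 1.12) with ldCil and from 0.07 to 0.83 (median 0.41) without it, with 7 of 8 ldCil libraries above all others and a difference of 0.86 ± 0.24. Both genes are low, and the lowest ldCil library was S13 for each.

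*Igfbp4* encodes a secreted protein that binds insulin-like growth factors and limits their action. It was the best expressed of the 12 genes (mean log2 RPKM 3.39). Its log2 RPKM was 1.91, 3.27 and 2.19 in control and 3.79, 3.54, 3.54 and 3.40 with ldCil. The AngII libraries had 2.70, 3.15, 3.30 and 4.49 and the AngII + ldCil libraries 4.33, 3.70, 3.14 and 4.36. The groups did not overlap without AngII (difference 1.11; 6.87% of genes tested did not overlap there) and overlapped with AngII (difference 0.47), where S8 held the highest value of all, and the interaction had an unadjusted p of 0.271 in limma. Over both levels the difference was 0.77 ± 0.28 (95% interval 0.17 to 1.36). *Fibin*, a secreted factor first described in fin development, was higher by 0.91 ± 0.30 with values from 0.88 to 2.31 with ldCil and −0.63 to 1.81 without it. *Mtfr2*, a regulator of mitochondrial fission, was higher by 0.43 ± 0.16, with S8 as the one library without ldCil among the high values.

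The rest of the 12 included *Kdr*, described with the VEGF genes, and transcripts whose reads may be shared with other loci. *Glud-ps* (0.68 ± 0.20) and *Eif3s6-ps2* (0.56 ± 0.21) are processed pseudogenes, *Gm6685* (0.53 ± 0.16) is a predicted gene, *A930004J17Rik* (0.72 ± 0.26) is an unassigned transcript, and *Gm10353* (0.73 ± 0.27) is annotated as antisense. The strand setting of the counting is not given in the sources used here, so these values may hold reads of their parent or partner genes.

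None of the 12 genes with the smallest p among those lower with ldCil reached an unadjusted p of 0.01. *Fam214b* led them with 5.74, 5.47 and 5.59 in control, 5.47, 5.48, 5.55 and 5.29 with ldCil, 5.49, 5.55, 5.47 and 5.62 with AngII and 5.33, 5.50, 5.23 and 5.12 with AngII + ldCil. Libraries overlapped at both AngII levels, and the difference was −0.20 ± 0.07 (limma unadjusted p = 0.0163, exact permutation p = 0.00816). *Sat1*, which acetylates polyamines for their breakdown and export, was 5.98, 5.90 and 6.07 in control and 6.09, 6.01, 5.74 and 5.85 with ldCil. With AngII it was 5.91, 6.24, 6.15 and 6.03, against 5.86, 5.81, 5.37 and 5.15 with AngII + ldCil, where no library overlapped (1.55% of genes tested). The difference was −0.06 without AngII and −0.54 with it, and among the 24 leading genes *Sat1* was the one with an interaction at an unadjusted p under 0.05 (limma unadjusted p = 0.0494).

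*Plcb1* encodes phospholipase C β1, an effector of Gq-coupled receptors such as the AngII type 1 receptor. It was 1.73, 1.76 and 1.84 in control and 1.03, 1.51, 1.45 and 0.66 with ldCil, without overlap, and 1.58, 1.73, 1.41 and 2.04 with AngII against 1.54, 1.74, 1.01 and 1.22 with AngII + ldCil, with overlap. The difference was −0.45 ± 0.17 over both levels. *Opn3*, a non-visual opsin, differed by −0.45 ± 0.17, with no overlap in the AngII libraries (1.58 to 1.99 against 0.76 to 1.40). *Ogg1*, the glycosylase that removes oxidised guanine from DNA, differed by −0.24 both without and with AngII, and its 8 ldCil libraries lay between 2.14 and 2.58 against 2.48 to 2.92 without ldCil.

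*Ddit3* encodes CHOP, a transcription factor of the endoplasmic reticulum stress response. Its log2 RPKM was 5.67, 5.62 and 5.65 in control and 5.47, 5.62, 5.00 and 4.99 with ldCil. The AngII libraries had 5.10, 4.93, 4.84 and 5.03 and the AngII + ldCil libraries 4.94, 4.83, 4.88 and 4.77. The 2 ldCil libraries near the control level, S9 and S10, are those with the high interferon list mean, and with that mean as a covariate the difference of *Ddit3* was −0.15 (limma unadjusted p = 0.0594) in place of −0.24 ± 0.10. *Fabp7*, a fatty acid-binding protein, likewise was high in S9 and S10 (1.48 and 1.33) and low in S11 and S12 (−0.18 and −0.10), with control at 2.0, 2.08 and 2.50. Its difference of −0.87 ± 0.33 was −0.58 with that covariate (limma unadjusted p = 0.0247). The other genes of the 12 were *Tnr* (−0.55), *Ap5z1* (−0.23), *Ccdc68* (−0.49), *Rab27b* (−0.40) and *Efhd1* (−0.47). All 24 leading genes had the same sign at both AngII levels, which the choice by the additive model favours.

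The RGD-binding integrins are the receptors that cilengitide and its relatives occupy. None of the 9 RGD-binding integrin genes tested reached an unadjusted p of 0.05, with 3 above 0 and 6 below and a median difference of −0.05 (0.01 over all genes). *Itgb3*, the β3 subunit (chromosome 11, 104608000 to 104670476, plus strand), had a log2 RPKM of 3.49, 2.43 and 3.85 in control and 3.63, 3.71, 3.86 and 3.37 with ldCil. With AngII it was 2.67, 3.84, 3.43 and 2.29, against 2.93, 2.52, 3.42 and 2.89 with AngII + ldCil. Libraries with and without ldCil overlapped at both AngII levels, and the difference was 0.12 ± 0.25 (95% interval −0.41 to 0.65). Its partner *Itgav*, the αv subunit, was 6.28, 6.21 and 6.38 in control, 6.31, 6.25, 5.70 and 5.78 with ldCil, 5.97, 5.94, 5.98 and 6.31 with AngII and 6.27, 6.16, 5.67 and 6.28 with AngII + ldCil. S11, S12 and S15 lay below all libraries without ldCil while the other 5 did not, and the difference was −0.11 ± 0.12 (95% interval −0.37 to 0.16).

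The other cilengitide-binding subunit, *Itgb5*, differed by −0.17 ± 0.12 (95% interval −0.43 to 0.10), between 7.11 and 7.64 with ldCil and 7.15 and 7.94 without it. *Itgb1*, the common β1 subunit and the best expressed integrin of the list by RPKM, was bounded most tightly, at −0.05 ± 0.08 (95% interval −0.22 to 0.11). *Itgb6* (−0.14), *Itgb8* (0.65), *Itga8* (0.43) and *Itga2b* (−0.38) had intervals that spanned 0, the widest for *Itga8*, from −0.86 to 1.72. *Itga8* lay between 0.99 and 1.86 in S1, S3, S5, S9 and S10, the libraries with a high interferon list mean, and between 3.39 and 4.96 in the others, so that its libraries split in the control, ldCil and AngII groups alike. Over the 30 alternatives, among them a fit with that list mean as a covariate, its difference ran from −0.35 to 0.70. None gave an unadjusted p under 0.05 in limma. The cause of the split was not tested.

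*Itga5*, the α5 subunit of the fibronectin receptor, had estimates of opposite sign at the 2 AngII levels. It was 6.93, 6.77 and 7.06 in control and 7.19, 7.20, 7.99 and 7.04 with ldCil, a difference of 0.44. It was 7.06, 7.58, 7.11 and 7.02 with AngII and 6.87, 6.72, 6.93 and 6.53 with AngII + ldCil, a difference of −0.43 with no overlap. The interaction had an unadjusted p of 0.0075 in limma, and no interaction passed the adjusted threshold. S11 and S6 stood well above the other libraries of their groups, and the mean over both levels was −0.03 ± 0.17.

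**Figure D2:**
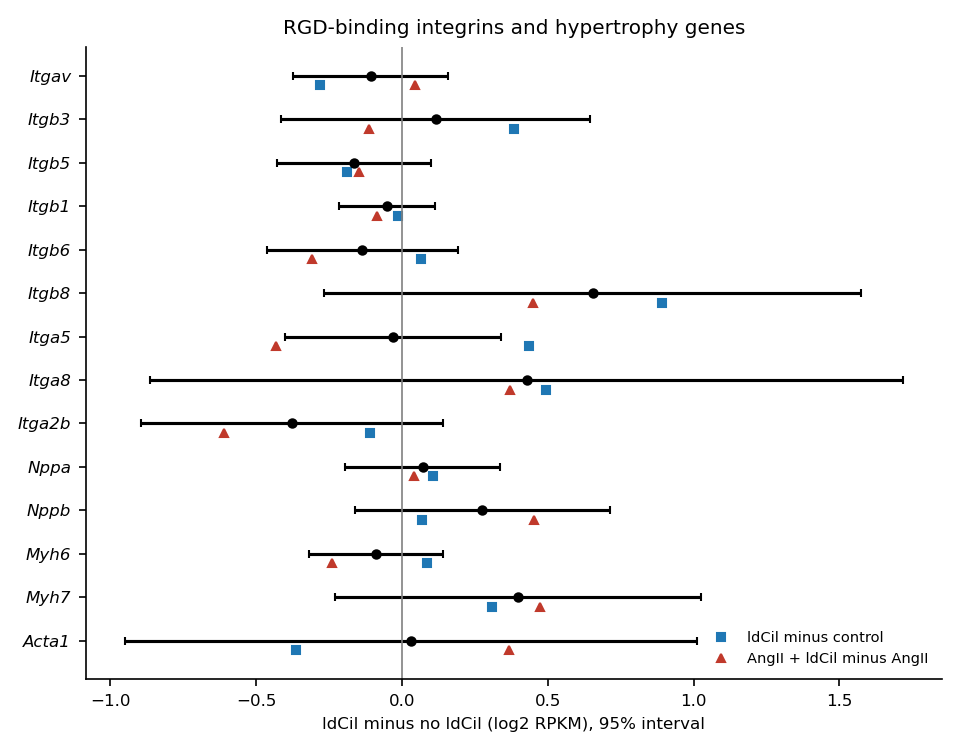
Difference with ldCil in log2 RPKM for 9 RGD-binding integrin genes and 5 hypertrophy genes: black points and bars give the estimate over both AngII levels with its 95% interval, blue squares the difference without AngII and red triangles that with AngII. Every interval spans 0, and *Itga5* has estimates of 0.44 without AngII and −0.43 with it.

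Genes that carry the RGD motif to these receptors, and the adhesion machinery behind them, are given next. Of 18 RGD-bearing ligand genes 12 lay above 0, with a median of 0.03, and no gene reached an unadjusted p of 0.05. *Npnt* (nephronectin, a ligand of α8β1) had the smallest p of them, at 0.49 ± 0.30, followed by *Emilin1* (−0.19 ± 0.13) and *Tgfb3* (0.18 ± 0.16), which is released from its latent form by RGD-binding integrins. Of 38 focal adhesion and integrin signalling genes 18 lay above 0 and 20 below, with a median of −0.01 and none at an unadjusted p under 0.05. The 3 with the smallest p were the adaptor *Crkl* (0.27 ± 0.16), *Cd47* (−0.31 ± 0.20), which associates with αvβ3, and *Tns1* (0.23 ± 0.16), which ties integrins to actin.

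*Kdr* encodes VEGF receptor 2, the main signalling receptor for VEGF-A on endothelial cells (chromosome 5, 75932827 to 75978458, minus strand). Its log2 RPKM was −0.47, 0.19 and 0.17 in control and 0.06, 0.23, 1.41 and 0.67 with ldCil. The AngII libraries had −0.78, 1.28, 0.43 and 1.13 and the AngII + ldCil libraries 1.85, 1.18, 1.39 and 1.55. All 4 AngII + ldCil libraries were high, but S6 lay above the lowest of them, and libraries overlapped at both levels. The difference was 0.82 ± 0.30 (95% interval 0.17 to 1.46; limma unadjusted p = 0.0165; exact permutation p = 0.0135), and it was 0.59 when S5 was left out. *Kdr* was 1 of 16 VEGF pathway genes at an unadjusted p under 0.05, and the list had 9 genes above 0 and a median of 0.01. *Nrp1*, a VEGF co-receptor (mean log2 RPKM 6.97), differed by 0.19 ± 0.11 and the ligand gene *Vegfc* by −0.32 ± 0.23.

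*Kdr* also belongs to the endothelial markers, which leaned the same way. Their median level was a log2 RPKM of 1.28, in the range between 0 and 2 where 1485 of 2430 genes lay above 0. Of 11 markers tested 9 lay above 0, with a median of 0.26, and *Kdr* was the one with an unadjusted p under 0.05. The next were *Tie1* (0.40), *Cdh5* (0.36) and *Egfl7* (0.35), and the best expressed, *Eng*, lay at −0.18. The median was 0.01 without AngII and 0.47 with it, and 0.10 when S13 was left out. S13 had the highest list mean, 0.88 above the average library, and the other ldCil libraries lay between −0.20 and 0.26 against −0.41 to 0.24 without ldCil. In bulk RNA, more cells of a type and more RNA per cell cannot be told apart.

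Genes that the study names as higher with ldCil in cardiac endothelial cells, a different cell culture, at both of its time points were also followed. Of 12 such genes 10 were tested here, 6 above 0 and 4 below, with a median of 0.01 and none at an unadjusted p under 0.05. The median was 0.19 without AngII and −0.17 with it, and it was 0.14 when S16 was left out, the library with the lowest list mean (−0.98, against 0.04 to 0.27 in the other ldCil libraries and −0.19 to 0.25 without ldCil). The metallothionein gene *Mt1* (0.02 ± 0.13), *Ccn3* (0.02 ± 0.18) and the protease gene *Adam8* (0.01 ± 0.26) lay near 0. *Eln* (elastin, 0.73 ± 0.74) and *Ccl7* (a monocyte chemokine, −0.95 ± 0.90) had the widest intervals, from −0.85 to 2.30 and from −2.85 to 0.96. *Eln* ranged from 4.28 to 8.39 among ldCil libraries and from 4.04 to 8.33 without ldCil, so nearly the same span was covered with and without the peptide. The others were *Slc30a1* (0.35), *Col6a3* (0.70), *Csf2rb* (−0.24), *Socs2* (−0.12) and *Mt2* (−0.09).

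None of the 5 hypertrophy markers followed singly reached an unadjusted p of 0.05 in limma. *Myh7*, the fetal myosin heavy chain, had a log2 RPKM of 6.05, 6.18 and 6.11 in control and 6.11, 6.14, 6.60 and 6.84 with ldCil. With AngII it was 6.31, 6.96, 6.91 and 6.23, against 6.31, 6.15, 7.16 and 8.68 with AngII + ldCil. S16 alone stood far above its group, and the difference was 0.40 ± 0.29 (95% interval −0.23 to 1.02). The natriuretic peptide gene *Nppb* differed by 0.28 ± 0.20 (95% interval −0.16 to 0.71), and skeletal actin *Acta1*, which spanned 3.20 to 7.08 in the AngII group, by 0.03 ± 0.46. *Nppa* took the values 11.73, 11.98 and 12.40 and no other in the 15 libraries. These values recur at the top of the libraries, and the highest value of every library is the same 12.40, so the scale cannot resolve small changes of the highest genes such as *Nppa* (0.07 ± 0.12) and *Myh6* (−0.09 ± 0.11).

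Wider cardiac lists were as close to 0. Of 25 natriuretic peptide and hypertrophy genes 18 lay above 0 with a median of 0.09, and the smallest p belonged to *Uchl1* (−0.34 ± 0.18), *Gata4* (0.28 ± 0.17), a transcription factor of the hypertrophic response, and *Xirp1* (0.32 ± 0.21). Of 37 sarcomere and calcium handling genes 21 lay above 0 with a median of 0.01, among them *Ldb3* (0.24) and *Casq2* (0.19). Ion channel genes had a median of 0.05 (14 of 21 above 0), with 0.26 without AngII and −0.12 with it, and cell junction genes of 0.02 (14 of 25), including the gap junction gene *Gja1* (0.24 ± 0.16). Of the 12 genes of the renin-angiotensin system and AngII receptor signalling, *Plcb1* alone was at an unadjusted p under 0.05.

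Energy metabolism genes had small differences, in part of opposite sign at the 2 AngII levels, and the difference between levels was not tested over a list. Nuclear-encoded respiratory chain subunits lay below 0 in 55 of 78 genes with a median of −0.04, fatty acid oxidation genes in 16 of 26 with −0.05 and tricarboxylic acid cycle genes in 19 of 31 with −0.03. Mitochondrially encoded genes lay above 0 in 8 of 10 with a median of 0.05. Glycolysis genes had a median of 0.16 without AngII, with 20 of 29 above 0 (50.3% of all genes, whose median was 0.0014), and −0.23 with AngII, with 4 above 0 (52.4% of all genes, median 0.011). Their list mean ran from −0.57 (S16) to 0.53 (S15) with AngII + ldCil and from −0.24 to 0.37 with AngII. Over both levels the median was −0.05, and 0.04 when S16 was left out. *Ldha*, which makes lactate from pyruvate, differed by 0.11 without AngII and −0.44 with it (interaction, limma unadjusted p = 0.0263), and *Pkm*, pyruvate kinase, by −0.46 with AngII, where its libraries did not overlap. Over both levels the *Pkm* difference lay between −0.31 and −0.14 with 1 library left out, and was smallest in size without S16.

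**Figure D3:**
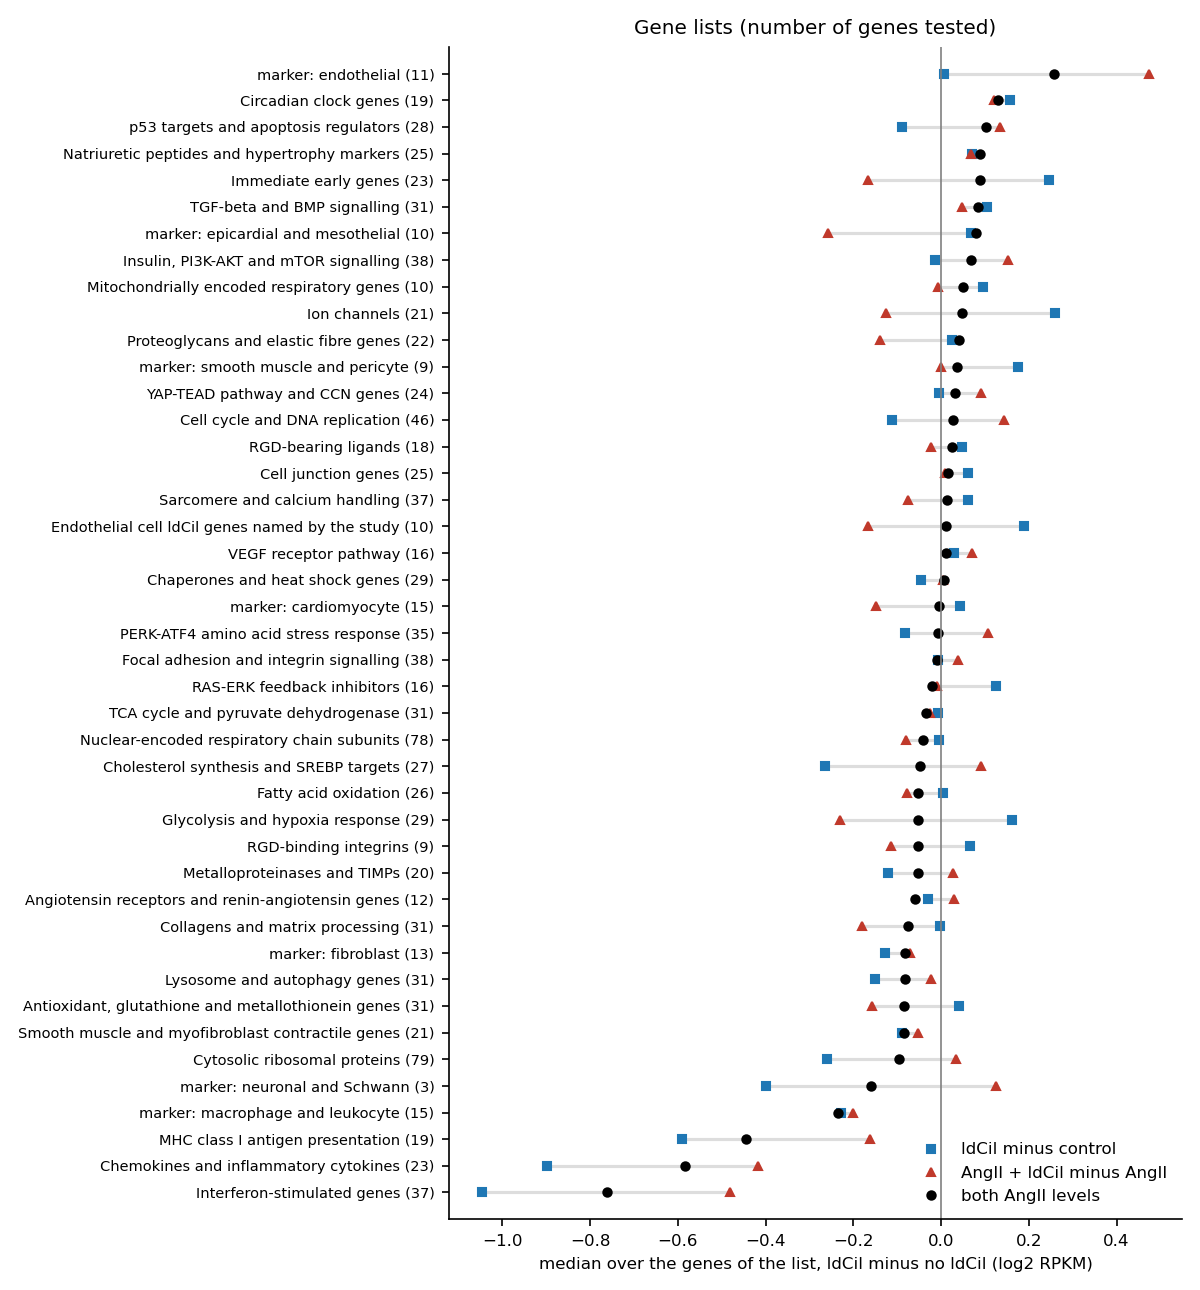
Median difference with ldCil in log2 RPKM over the genes of each of 43 lists, with the number of genes tested in brackets: black circles over both AngII levels, blue squares without AngII and red triangles with AngII. Over both levels 35 of the 43 lists lie within 0.1 of 0, and 5 lie beyond 0.2, namely the interferon, chemokine, MHC class I, macrophage and endothelial lists.

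The lists furthest from 0 were the innate immune ones. Interferon-stimulated genes, which cells switch on when they sense interferon and many of which block viral replication, lay below 0 in 36 of 37 cases with a median of −0.76, and none reached an unadjusted p of 0.05. *Irf7*, which amplifies the response, differed by −1.76 ± 1.10, *Ifit1* by −1.54 ± 1.34, the ubiquitin-like modifier *Isg15* by −1.32 ± 1.12 and *Bst2*, which tethers budding virus, by −0.97 ± 0.76. The smallest p belonged to *Oas2* (−1.27 ± 0.69; limma unadjusted p = 0.0852). The list mean, with each gene centred over the 15 libraries, was 1.80, 0.26 and 2.35 in control and 2.33, 2.04, −1.56 and −1.29 with ldCil. The AngII libraries had 1.76, −1.53, −1.41 and −0.75 and the AngII + ldCil libraries −0.38, −0.55, −1.53 and −1.54. The ldCil and AngII groups held libraries from both ends of the range, and no library with AngII + ldCil was high.

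**Figure D4:**
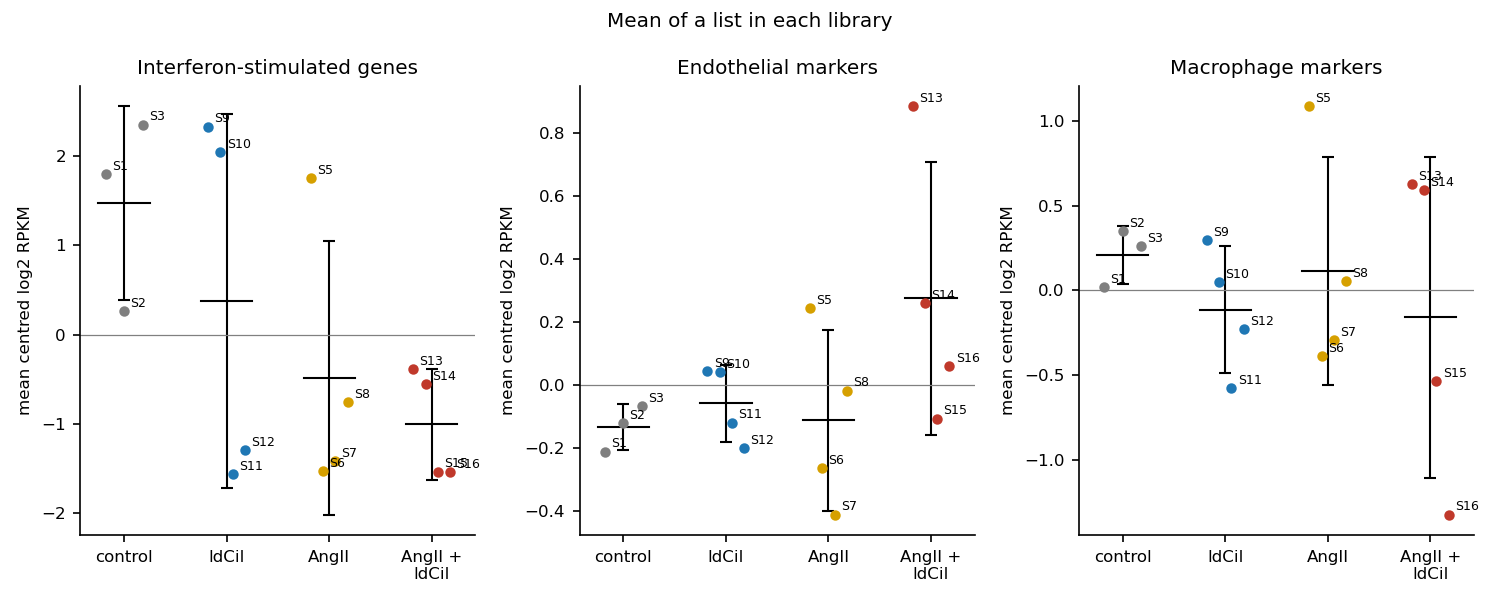
Mean of 3 gene lists in each library, in log2 RPKM centred per gene over the 15 libraries; points are libraries named S1 to S16, lines and bars the group mean and SD. S9 and S10 lie near S1 and S3 for the interferon-stimulated genes, S13 is the highest for endothelial markers, and S16 is the lowest for macrophage markers.

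The mean of that list was −0.31 with ldCil (SD 1.61, n = 8) and 0.36 without it (SD 1.63, n = 7). The SD within a group exceeded the difference between these means in control (1.08), AngII (1.53) and ldCil (2.09), and lay just below it in AngII + ldCil (0.62). Its median difference ranged from −1.04 without S9 to −0.40 without S5, and it was 0.24 with libraries weighted by their scatter, the opposite sign. When the leading residual component was added to the model, which leaves the differences as they are and takes its variance out of the error, *Irf7*, *Ifit1* and *Bst2* were the only genes of the whole table to pass an adjusted p of 0.05, in 1 of 30 alternatives. These genes were named after their values were seen. The component was taken from the residuals of the same fit, so their adjusted p-values are not a valid test.

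Promoters of the interferon-stimulated genes were then searched. The list was made of genes known to respond to interferon, so its share with the motif describes the list and not an effect of ldCil. The motif of 2 copies of GAAA separated by any 2 bases, the core of an element bound by interferon regulatory factors, was searched on both strands in the 250 bases before the start site of RefSeq genes (GRCm38.p6). It was present for 11 of the 28 list members with a promoter sequence (39.3%), for 3 of 17 MHC class I genes (17.6%), for 1 of 16 chemokine genes (6.25%), for 3.01% of the 9547 tested genes matched and for 3.46% of all 27025 genes. A match is a description of letters, not of binding. Windows of 3 members are shown because they carry the motif of the list with the largest median difference, each on the strand of its gene with motif bases in capitals. Isg15 is from chr4:156200845-156200926 (minus strand), Ifit1 from chr19:34640755-34640843 (plus strand) and Rsad2 from chr12:26456533-26456602 (minus strand).
Isg15: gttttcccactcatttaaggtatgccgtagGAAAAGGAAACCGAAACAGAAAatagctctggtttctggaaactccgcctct
Ifit1: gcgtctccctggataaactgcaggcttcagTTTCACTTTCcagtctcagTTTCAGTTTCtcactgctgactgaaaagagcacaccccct
Rsad2: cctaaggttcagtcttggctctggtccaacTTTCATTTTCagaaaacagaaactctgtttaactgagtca
In Isg15 overlapping matches run together on the gene's strand, and in Ifit1 and Rsad2 the matches lie on the opposite strand and read as 2 copies of TTTC. *Rsad2*, the antiviral radical SAM enzyme viperin, differed by −0.59 ± 0.92.

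MHC class I presentation genes lay below 0 in 19 of 19 cases with a median of −0.45 and none at an unadjusted p under 0.05. The median ranged from −0.59 without S9 to −0.18 without S5, and with libraries weighted by their scatter it was 0.08, the opposite sign. *B2m*, the invariant light chain of class I molecules, was 9.22, 8.88 and 9.29 in control and 9.12, 9.07, 6.45 and 6.70 with ldCil. With AngII it was 8.51, 6.61, 6.65 and 7.21, against 7.76, 7.72, 6.66 and 6.07 with AngII + ldCil. The ldCil libraries split into S9 and S10 at the control level and S11 and S12 far below it, as they did for the interferon list, and the difference was −0.70 ± 0.46. *H2-K1* (−0.63 ± 0.42) and *H2-Q7* (−0.95 ± 0.54), a member of a family whose copies can share reads, were similar. Chemokines and inflammatory cytokines lay below 0 in 22 of 23 cases with a median of −0.58, with *Il1b* at −2.27 ± 1.42, *Il6* at −1.03 ± 0.90 and *Cxcl16* at −0.89 ± 0.68. Their median ranged from −0.85 without S10 to −0.26 without S5, and library weights turned it to 0.38. *Il1b* ran from −4.06 to 5.54 with ldCil and from −2.04 to 5.75 without it. With the interferon list mean of each library as a covariate the MHC class I median was −0.05 and the chemokine median 0.04.

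Macrophage and leukocyte markers lay below 0 in 14 of 15 cases, with a median of −0.23 and none at an unadjusted p under 0.05. *Lyz2* differed by −0.27 ± 0.44, *Cd68* by −0.16 ± 0.24 and *Ctss* by −0.19 ± 0.33. The list mean was lowest in S16 (−1.32) and highest in S5 (1.09), and without S16 the median was 0.01. Cardiomyocyte markers had a median of −0.01 (7 of 15 above 0), smooth muscle and pericyte markers of 0.04 (6 of 9), fibroblast markers of −0.08 (4 of 13) and epicardial markers of 0.08 (7 of 10). Of 12 neuronal and Schwann markers 3 were tested, with a median of −0.16, and none of the 10 erythroid markers was in the table.

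In the collagen, proteoglycan and metalloproteinase lists, the members at an unadjusted p under 0.05 were *Mgp* and *Col15a1*. These lists do not hold every matrix gene. *Tnr*, given above among the genes lower with ldCil, is a matrix gene outside them. *Mgp*, matrix Gla protein, an inhibitor of calcification, had a log2 RPKM of 2.95, 4.83 and 3.39 in control and 4.61, 4.62, 7.33 and 6.19 with ldCil. The AngII libraries had 4.39, 6.61, 6.06 and 6.51 and the AngII + ldCil libraries 6.69, 5.83, 6.78 and 6.16. The difference was 1.96 without AngII and 0.47 with it, and 1.16 ± 0.48 over both (limma unadjusted p = 0.0279, exact permutation p = 0.0616). *Col15a1*, a basement membrane collagen, was high and low in the same libraries, with 3.13, 4.14 and 3.30 in control and 4.23, 4.30, 6.77 and 5.89 with ldCil, and differed by 1.05 ± 0.44 (exact permutation p = 0.0637). Both were lowest in S1, S3 and S5 and low in S9 and S10, the libraries with a high interferon list mean. With that mean as a covariate the differences were 0.66 for *Mgp* and 0.57 for *Col15a1* (limma unadjusted p = 0.0223 and 0.0171), so both stayed under 0.05. As a list, collagens lay below 0 in 21 of 31 cases (median −0.07) and metalloproteinases and TIMPs in 14 of 20 (−0.05), while proteoglycans and elastic fibre genes lay above 0 in 13 of 22 (0.04).

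The medians of the signalling lists were small. TGF-β and BMP signalling genes lay above 0 in 25 of 31 cases with a median of 0.08. *Bmp7* was the one at an unadjusted p under 0.05, at 0.36 ± 0.15, from 1.50 to 2.37 with ldCil and 1.45 to 1.81 without it, with S11, S15 and S16 above all other libraries. Next came the BMP receptor *Acvr1* (0.18 ± 0.10) and the BMP target *Id3* (−0.25 ± 0.14), of opposite sign. Insulin, PI3K-AKT and mTOR genes lay above 0 in 29 of 38 cases with a median of 0.07, led by *Phlpp2* (0.24 ± 0.13), an AKT phosphatase, *Sos1* (0.21) and *Pdpk1* (0.22), the kinase that activates AKT. Without AngII 17 of the 38 lay above 0 and with AngII 32. Clock genes lay above 0 in 16 of 19 cases (53.4% of all genes) with a median of 0.13, including *Per2* (0.23 ± 0.14), *Ciart* (0.42 ± 0.26) and *Nr1d1* (0.41 ± 0.26). The clock list mean ran from −0.15 to 0.46 with ldCil and from −0.36 to 0.25 without it. The clock median was 0.07 when S5 was left out. YAP-TEAD genes had a median of 0.03 (16 of 24 above 0), immediate early genes of 0.09 (16 of 23; 0.25 without AngII and −0.17 with it) and RAS-ERK feedback inhibitors of −0.02 (7 of 16).

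Proliferation and protein synthesis lists had medians of opposite sign at the 2 AngII levels, a difference that was not tested over a list. Cell cycle and DNA replication genes lay above 0 in 27 of 46 cases with a median of 0.03. They did so in 12 of 46 without AngII (median −0.11) and 40 of 46 with it (0.14), where 6 lay below 0 against 47.6% of all genes. Libraries of a group lay apart. The list mean was −0.10, 0.20 and −0.07 in control and 0.25, 0.15, −0.34 and −0.37 with ldCil. With AngII it was −0.08, −0.24, −0.40 and 0.54, against 0.26, 0.22, 0.12 and −0.16 with AngII + ldCil. *Mcm7*, a subunit of the replicative helicase, was the one at an unadjusted p under 0.05, at 0.35 ± 0.15, from 5.04 to 5.63 with ldCil and 4.22 to 5.55 without it, and it was 0.23 when S5, its lowest library, was left out. The proliferation marker *Mki67* differed by 0.21 ± 0.15. Cytosolic ribosomal protein genes lay below 0 in 75 of 79 cases with a median of −0.10. Without AngII 78 of 79 lay below 0 (49.7% of all genes, list median −0.26), and with AngII 50 of 79 lay above it (0.03). The median over both levels was 0.01 when S5 was left out. The list mean was 0.20, 0.15 and 0.21 in control. With ldCil it was 0.20 and 0.14 in S9 and S10, near control, and −0.26 and −0.35 in S11 and S12. The PERK-ATF4 stress response had 17 genes above 0 and 18 below with a median of −0.01, so *Ddit3* did not stand for its list, whose next genes were *Slc38a2* (0.25 ± 0.17) and *Gdf15* (0.23 ± 0.16). Chaperones had a median of 0.01 (15 of 29 above 0), cholesterol synthesis genes of −0.05 (8 of 27), antioxidant genes of −0.08 (12 of 31), lysosome and autophagy genes of −0.08 (8 of 31), smooth muscle contractile genes of −0.08 (8 of 21) and p53 targets of 0.10 (17 of 28). Across all lists 7 of 1016 distinct genes tested (0.689%) were at an unadjusted p under 0.05 and 0 at 0.01, near the share over all genes.

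The difference at each AngII level was then taken from group means, in comparisons that share no library. No gene passed an adjusted p of 0.05 in limma for ldCil minus control (33, or 0.257%, at an unadjusted p under 0.01 and 251, or 1.95%, under 0.05), nor for AngII + ldCil minus AngII (43, or 0.335%, and 331, or 2.58%). The interaction had 0 genes at the adjusted threshold, 75 (0.584%) at an unadjusted p under 0.01 and 496 (3.86%) under 0.05. Both comparisons had the same sign for 5819 genes (45.3%). Libraries did not overlap for 883 genes (6.87%) without AngII, where 3 are set against 4, and for 199 (1.55%) with AngII. Estimates larger than 1 in size numbered 278 without AngII and 49 with it. The medians of 27 of 43 lists had opposite signs at the 2 levels.

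**Figure D5:**
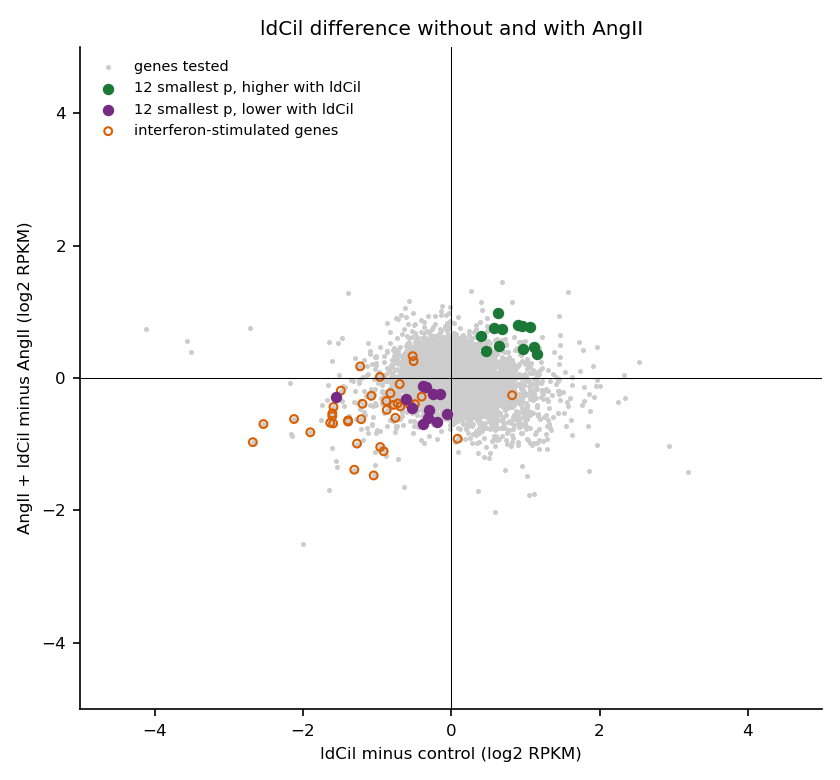
Difference with ldCil in log2 RPKM without AngII (horizontal axis) and with AngII (vertical axis) for the 12848 genes tested in grey, with the 12 genes of smallest p in each direction in green and purple and interferon-stimulated genes as orange circles. The 24 leading genes lie in the 2 quadrants of equal sign, 5819 of all genes do, and most orange circles lie left of and below 0.

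Of the genes at an unadjusted p under 0.05 in the additive model, the 5 with the smallest interaction p had a large estimate at 1 AngII level. *Rln1*, the relaxin gene, differed by 1.96 without AngII and −0.03 with it (interaction, limma unadjusted p = 0.0035), *8430422M14Rik* by 2.33 and 0.05, and the zinc-finger gene *Zfp169* by 1.62 and 0.01. The reverse held for the pseudogene *Hspd1-ps3*, at 0.03 and 0.68, and for the ETS factor gene *Elf4*, at −0.02 and 0.43. The libraries of each did not overlap at the level where the difference was large, which the choice by these p-values favours. Over all genes tested, libraries did not overlap for 6.87% without AngII and 1.55% with it. No interaction of these genes passed the adjusted threshold, so a difference between the levels was not shown for any of them.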

How the data were processed

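RNA was captured by poly(A) and sequenced on an Illumina NextSeq. Per the labels, reads were aligned with HISAT2 to GRCm38 (mm10) and counted with HTSeq, with versions, annotation and strand setting not given in the sources used here. Values are log2 RPKM deposited by the authors after conditional quantile normalisation, which gives all libraries nearly the same distribution. No counts were used, so depth and counting intervals are not given. Of 14337 gene identifiers, 14329 matched GENCODE M21.

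Genes with a mean of at least 0 over the 15 libraries (12848) were fitted in R 4.3.3 with limma 3.58.1 (ldCil and AngII additive, empirical Bayes with a trend, 2-sided p, Benjamini-Hochberg over all genes tested). A fit with 1 mean per group gave the differences at each AngII level and the interaction. Exact permutation tests kept AngII levels apart. The fit was run on simulated data whose errors were independent between genes and libraries, unlike the shared variation between libraries seen here. A list is described by its counts and median. The genes named are the 12 with the smallest p in each direction, all integrins and endothelial ldCil genes tested, the 3 members with the smallest p of each other list (of marker lists, the 3 highest), 5 hypertrophy genes and the 5 smallest interactions, plus genes named after their values were seen (*Irf7*, *Ifit1*, *Isg15*, *Bst2*, *Rsad2*, *Tie1*, *Cdh5*, *Egfl7*). Members and lists were chosen with earlier results of these data known. Alternatives were other models, filters, pseudocounts, normalisations, moderation, library weights, covariates and each library left out.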

Additional observations from a re-analysis of the deposited data

Results flagged for a closer look

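The genes checked were the named genes at an unadjusted p under 0.05, the RGD-binding integrins and the hypertrophy genes followed singly, 47 in all. In their 141 groups of 4 libraries (AngII, ldCil and AngII + ldCil), 1 library stood apart from the other 3 by more than Dixon's 95% limit in 7 cases. Chance alone marks about 1 in 20 groups. *Rab27b* was 2.35 in S16 against 3.35 to 3.45 in the other AngII + ldCil libraries. *Itgav* was 6.31 in S8 against 5.94 to 5.98 in the other AngII libraries. *Itga5* was 7.58 in S6 against 7.02 to 7.11 with AngII, and 7.99 in S11 against 7.04 to 7.20 with ldCil. *Nppa* was 11.73 in S7 against 11.98 in the other AngII libraries, and 12.40 in S11 against 11.98 in the other ldCil libraries, values that repeat in the table. *8430422M14Rik* was 1.95 in S15 against 0.63 to 0.67 in the other AngII + ldCil libraries. No named gene had an interaction at an adjusted p under 0.05.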

How the results depend on the processing

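No paired analysis was possible because the labels give no replicate numbers, and libraries were numbered within a group in listing order only. The count of genes with ldCil at an adjusted p under 0.05 was 0 in 29 of the 30 alternatives. It was 3 with the leading residual component in the model, which came from the residuals of the same fit. At an unadjusted p under 0.01 the count was 6, and 10 with 1 mean per group, 46 in only the 7 libraries without AngII, 17 in only the 8 with AngII, 0 with a filter at a mean of 2, 13 without a trend, 141 with library weights, 197 with the residual component, and 4 to 18 with 1 library left out (18 without S6 or S8). For ldCil minus control it was 33, and 6 (without S11) to 58 (without S10) with 1 library left out. For AngII + ldCil minus AngII it was 43, 17 with only the groups compared, and 14 (without S16) to 159 (without S8). For the interaction it was 75, and 34 (without S1 or S2) to 173 (without S8). For these last 3 comparisons the adjusted count stayed 0 in each of these settings. Of 33 named genes at an unadjusted p under 0.05, 1 (*Fbxo48*) stayed there in every alternative that tested it, and 17 did with each library left out in turn. *Rln1* reversed to −0.0286 in only the libraries with AngII and *Elf4* to −0.0185 in only those without. Library weights also turned the macrophage median to 0.18, the MHC class I median to 0.08 and the chemokine median to 0.38, and the causes were not tested. Depth is unknown, and the level of low genes and the repeated top values limit what can be resolved.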
